A study of Mus musculus with 6 samples.

Results

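The miR-30 family was examined in small RNA libraries of small extracellular vesicles (sEVs), the membrane-bound particles that cells release, from cultured mouse islets. Members were all entries of the deposited table named mmu-miR-30 with a letter from a to e, with any arm or hairpin suffix, and 11 of the 718 entries met this rule. Of these members, 5 come from the 5p arm and 6 from the 3p arm of their hairpins. The study compared sEVs from islets of mice on a normal chow diet (NCD, nid-sEVs) with sEVs from islets of mice on a high-fat diet (HFD) whose islets had adapted to it (aid-sEVs), with 3 libraries per group. All mice were wild-type and of the strain labelled C57/B6J. Islets were kept for 48 hours in medium without serum, sEVs were pelleted by ultracentrifugation, and 5 ng of sEV RNA went into each library. The paper states the age of its mice and the length of the HFD for its diet model in general. The number of mice behind each library is not given in the sources used here, so the p-values measure only the spread between these libraries, which may be technical.

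A microRNA (miRNA) hairpin is cut by Dicer into a 5p and a 3p strand, and one of them is usually kept by Argonaute while the other is mostly lost. The kept strand finds messenger RNAs chiefly through its seed, the bases from position 2 to position 8. The 5p strands of the miR-30 family share one seed and can therefore bind the same sites. In pancreatic cells the family is known for holding down mesenchymal transcripts such as vimentin and Snail1, and miR-30d is known for raising the beta cell factor MafA and insulin expression.

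Mature sequences were found in RefSeq (GRCm38.p6) for 7 of the 11 members. The 5p strands are shown because a shared seed makes them one pool of regulators, which is how their levels are treated further on. Capitals mark the seed:
miR-30a-5p: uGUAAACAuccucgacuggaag
miR-30c-5p: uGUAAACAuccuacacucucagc
miR-30e-5p: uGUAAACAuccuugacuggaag
miR-384-5p: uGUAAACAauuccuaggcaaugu

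Among the 1679 mature miRNA names in that reference, 4 carry this seed, and miR-384-5p is the 1 outside the family. Neither arm of miR-30b or miR-30d had a sequence there, so these could not be counted. Positions are counted from 1 at the 5′ end. Between miR-30a-5p and miR-30e-5p the only difference over 22 bases is C13U, whereas miR-30a-5p and miR-30c-5p differ at 5 of 22 positions, the first of them at position 13.

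The 3p strands carry other seeds and are shown because the comparisons below turn on miR-30a-3p and miR-30e-3p. Capitals again mark the seed:
miR-30a-3p: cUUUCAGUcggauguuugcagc
miR-30e-3p: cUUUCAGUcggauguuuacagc
miR-30c-1-3p: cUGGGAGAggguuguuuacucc
miR-30c-2-3p: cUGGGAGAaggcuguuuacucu

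The 3p strands of miR-30a and miR-30e differ only by G18A, outside the seed. The 3p strands of the 2 miR-30c hairpins differ by G9A, U12C and C22U, while their 5p strand is identical, so miR-30c-5p reads cannot be given to one hairpin. How reads that fit more than one of these near-identical strands were assigned is not given in the sources used here.

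In GRCm38, Mir30a (chr1:23272269-23272339, plus strand) has no annotated host gene on its own strand. Mir30c-2 (chr1:23291701-23291784, plus strand) starts 19432 bases further on and lies in an exon of the long non-coding RNA gene Gm27028. Mir30e (chr4:120772606-120772697, minus strand) and Mir30c-1 (chr4:120769534-120769622, minus strand) start 3072 bases apart in introns of Nfyc, which encodes a subunit of the transcription factor NF-Y. Both hairpins lie on the same strand as Nfyc, where 6 transcripts span them and no exon overlaps them.

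Levels are given as RPM, the read number scaled to the total of each library. Depth ran from 50534 to 129152 reads per library in nid-sEVs and from 122266 to 519315 in aid-sEVs, so 3 reads, taken as the lowest level the depth can show, stood for 23.2 to 59.4 RPM in nid-sEVs and for 5.78 to 24.5 RPM in aid-sEVs. The islet miRNA miR-375-3p was the most abundant entry in 5 of the 6 libraries. In nid-sEVs replicate 1 an entry without a miRBase name led with 18.3% of reads, and nid-sEVs replicate 3, the shallowest library, gave 34.6% of its reads to miR-375-3p.

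The family as a whole took a part of the reads that overlapped between the groups. It held 1.37%, 1.13% and 0.554% of reads in nid-sEVs and 1.03%, 0.778% and 1.10% in aid-sEVs. The summed 5p level was 12961, 10004 and 4927 RPM in nid-sEVs and 9409, 6575 and 10117 RPM in aid-sEVs. The nid-sEVs thus held both the highest and the lowest 5p sum, with a mean of 9298 ± 4063 RPM (SD, n = 3) against 8700 ± 1874 RPM (SD, n = 3) in aid-sEVs. The summed 3p level was 705, 1249 and 613 RPM in nid-sEVs and 861, 1207 and 867 RPM in aid-sEVs, which also overlapped.

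miR-30d-5p and miR-30a-5p were the most abundant members. mmu-miR-30d-5p stood at 4398, 3807 and 3344 RPM in nid-sEVs and at 3416, 2776 and 3950 RPM in aid-sEVs. Its libraries overlapped, and the log2 fold change (aid-sEVs minus nid-sEVs, on log2(RPM + 1)) was −0.19 with an SE of 0.32 and an adjusted p of 0.73 in limma. Its 95% interval ran from −0.97 to 0.58, the narrowest among the 5p arms.

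mmu-miR-30a-5p stood at 4963, 4066 and 989 RPM in nid-sEVs and at 3135, 1431 and 3182 RPM in aid-sEVs. Again the nid-sEVs held both ends of the range, and the fold change of −0.16 on the log2 scale had an SE of 0.72 (limma, adjusted p = 0.90). The order of these top members was not fixed, since miR-30a-5p led in nid-sEVs replicates 1 and 2 and miR-30d-5p led in the other 4 libraries. When RPM values were divided by edgeR's TMM factors, both fold changes turned positive, to 0.30 for miR-30d-5p and 0.34 for miR-30a-5p.

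The entry mmu-miR-30c-5p came next, at 1727, 1294 and 297 RPM in nid-sEVs and 1935, 1527 and 1603 RPM in aid-sEVs. Of the 5p arms it had the highest fold change, 0.94 on the log2 scale with an SE of 0.72 (limma, adjusted p = 0.41), and nid-sEVs replicate 1 lay inside the range of the aid-sEVs. Without nid-sEVs replicate 3 the fold change was 0.17.

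mmu-miR-30b-5p, at 1487, 472 and 218 RPM in nid-sEVs and 583, 715 and 973 RPM in aid-sEVs, overlapped between the groups, with a log2 fold change of 0.47 ± 0.77 (SE; limma, adjusted p = 0.73). mmu-miR-30e-5p was the lowest 5p arm, at 387, 365 and 79.2 RPM in nid-sEVs and 339, 125 and 409 RPM in aid-sEVs, with a log2 fold change of 0.21 ± 0.86 (SE; limma, adjusted p = 0.90). In every library miR-30c-5p exceeded miR-30b-5p, and miR-30b-5p exceeded miR-30e-5p. Between the groups, none of the 5p arms differed beyond the spread of the libraries.

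**Figure D1:**
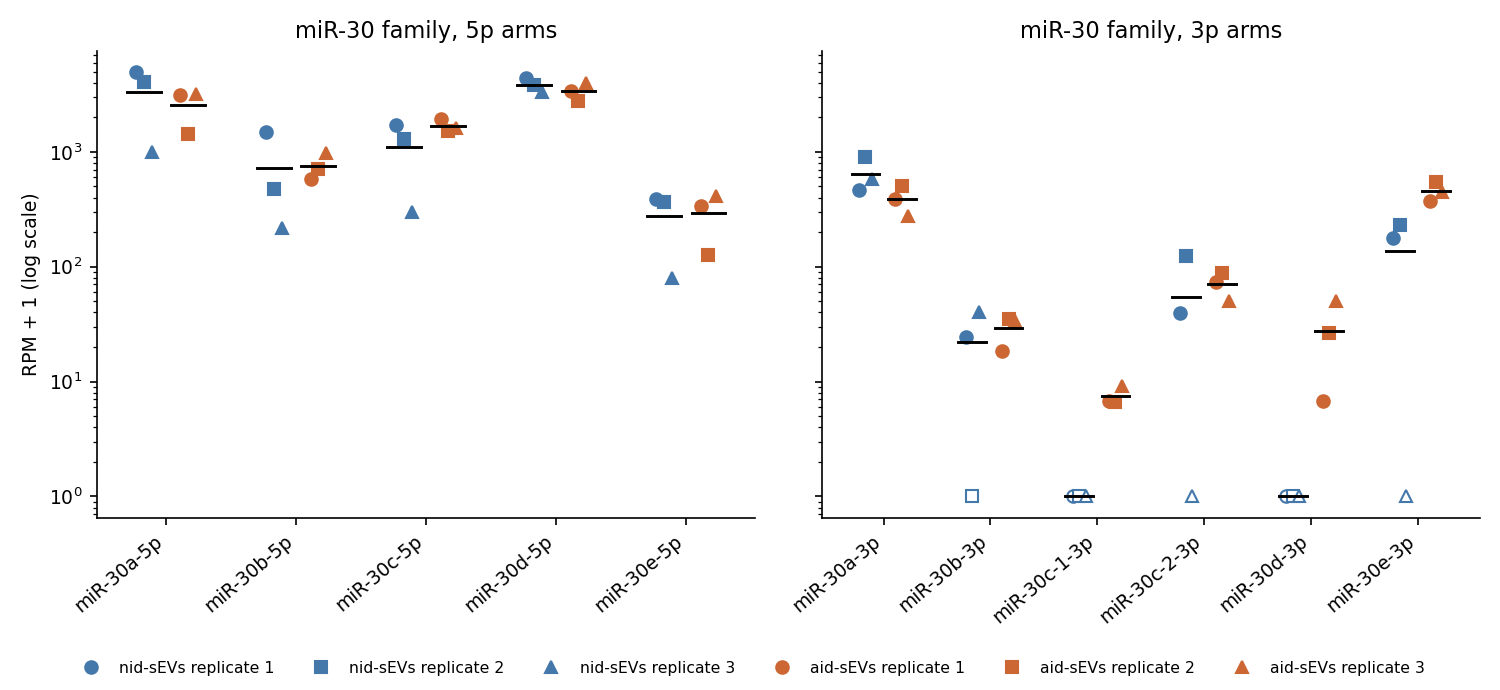
Level of each miR-30 member in every library, as RPM + 1 on a log scale, for the 5p arms (left) and the 3p arms (right). Blue and orange symbols are the 3 nid-sEV and 3 aid-sEV libraries, open symbols mark 0 reads, and black lines mark group means. Groups overlap for all 5p arms, while miR-30e-3p lies between 374 and 548 RPM in aid-sEVs and at 228 RPM or below in nid-sEVs.

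Among the 3p arms, only miR-30a-3p and miR-30e-3p had more than 38 reads in any library. mmu-miR-30a-3p stood at 465, 898 and 574 RPM in nid-sEVs (from 60, 59 and 29 reads) while it stood at 385, 505 and 278 RPM in aid-sEVs (from 200, 178 and 34 reads). Its mean was 646 ± 226 RPM (SD, n = 3) in nid-sEVs and 390 ± 114 RPM (SD, n = 3) in aid-sEVs, but aid-sEVs replicate 2 lay above nid-sEVs replicate 1. The log2 fold change was −0.71 ± 0.50 (SE; limma, adjusted p = 0.36).

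miR-30e-3p was the abundant member with the widest gap between the groups. The entry mmu-miR-30e-3p stood at 178, 228 and 0 RPM in nid-sEVs (from 23, 15 and 0 reads) while it stood at 374, 548 and 450 RPM in aid-sEVs (from 194, 193 and 55 reads). The groups did not overlap, and the ratio of the means was 3.37. The difference did not pass the test, with a log2 fold change of 3.71 ± 2.11 (SE; limma, adjusted p = 0.27). The size rested on nid-sEVs replicate 3, where no read was found, and without that library the log2 fold change was 1.16.

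The remaining 3p arms were near the depth limit. miR-30b-3p was read 3, 0 and 2 times in nid-sEVs but 9, 12 and 4 times in aid-sEVs, and miR-30c-2-3p had 5, 8 and 0 reads against 38, 31 and 6 reads. In RPM both overlapped between the groups (limma, adjusted p = 0.56 and 0.49). miR-30c-1-3p had no read in nid-sEVs but 3, 2 and 1 in aid-sEVs, and miR-30d-3p had none in nid-sEVs but 3, 9 and 6 in aid-sEVs.

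Of the 11 members, 2 passed limma at an adjusted p under 0.05 as higher in aid-sEVs, against 15.6% of all 718 entries, and 0 passed as lower, against 1.81% of all entries. At an unadjusted p under 0.05 in either direction the members past limma were also 2, against 27.9% of all entries. The members called were miR-30c-1-3p (limma, adjusted p = 0.029) and miR-30d-3p (limma, adjusted p = 0.032). Both were at 0 in all nid-sEV libraries, and of all entries at 0 in those libraries, 48.4% were called higher. In the nid-sEV libraries 3 reads stood for 23.2, 45.7 and 59.4 RPM. The mean of miR-30c-1-3p in aid-sEVs, 6.54 RPM, was below all of these limits, so a difference was not detectable at this depth. That of miR-30d-3p, 26.8 RPM, was above the limit of replicate 1 and below those of replicates 2 and 3. No fold is given for either, since the fitted value over a group at 0 is set by the pseudocount. Neither call was kept with reads thinned to the smallest library (limma, adjusted p = 0.28 for each) or with a pseudocount of 10 (limma, adjusted p = 0.10 for each), while both were kept with a pseudocount of 0.1 (limma, adjusted p = 0.0071 and 0.0083). In DESeq2 miR-30d-3p had an adjusted p of 0.27 and miR-30c-1-3p was given none. The call of miR-30c-1-3p was lost without any single nid-sEV library (limma, adjusted p = 0.051, 0.12 and 0.085 without replicates 1, 2 and 3). That of miR-30d-3p was lost without nid-sEVs replicate 2 or 3 or aid-sEVs replicate 2 (limma, adjusted p = 0.097, 0.074 and 0.081).

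Counted by overlap alone, 3 of the 11 members, miR-30e-3p, miR-30c-1-3p and miR-30d-3p, had their lowest aid-sEV library above their highest nid-sEV library, against 24.2% of all entries, and 0 showed the opposite, against 7.52%. Of the 6 members detected in every library, which were the 5p arms and miR-30a-3p, 0 were separated in either direction, against 20.5% (higher) and 20.1% (lower) of the entries so detected. The median log2 fold change was 0.21 over the 5p arms, beside 1.11 over all entries and −0.21 over those entries that were read in every library. Over the 6 members detected in every library it was 0.023. With reads thinned to the smallest library, the median over all entries was 0.32. Of the 6 3p arms, 5 had 0 reads in at least 1 nid-sEV library, and no median is given for them.

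**Figure D2:**
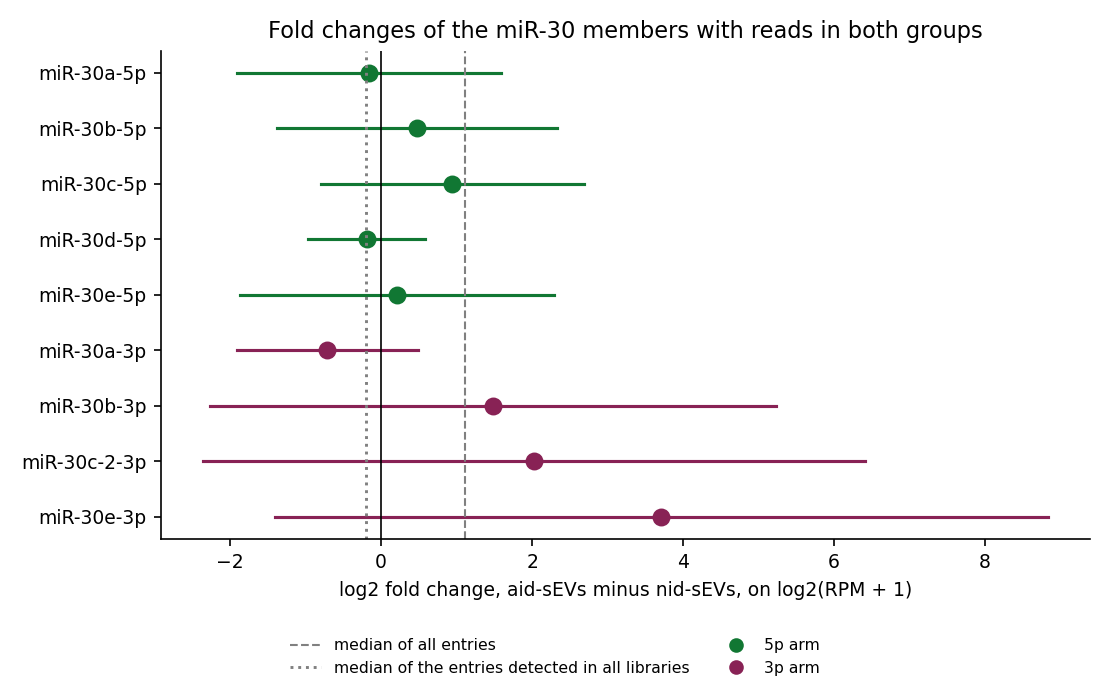
Log2 fold change of the 9 members with reads in both groups (aid-sEVs minus nid-sEVs, on log2(RPM + 1), limma) with its 95% interval. Green marks 5p arms and purple 3p arms, and all 9 intervals cross 0. Grey lines mark the medians of all entries (1.11) and of the entries detected in every library (−0.21).

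Members of one library share its total, which cancels in their ratios as long as both members have reads well above the added 1 RPM. A ratio with a member at 0 depends on the total and on the pseudocount. With 3 libraries against 3, the smallest p of the exact permutation test is 0.10. miR-30c-5p made up 13.3%, 12.9% and 6.02% of the 5p sum in nid-sEVs and 20.6%, 23.2% and 15.8% in aid-sEVs. The share was thus 10.8% ± 4.11 (SD, n = 3) against 19.9% ± 3.74 (SD, n = 3), with no overlap (exact two-sided permutation test, p = 0.10, adjusted p = 0.50 over the 5 members). It differed by 6.75 to 11.1 percentage points when single libraries were left out.

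The other shares overlapped. miR-30d-5p held 33.9%, 38.1% and 67.9% of the 5p sum in nid-sEVs and 36.3%, 42.2% and 39.0% in aid-sEVs, so that nid-sEVs replicate 3 stood apart. miR-30a-5p held 38.3%, 40.6% and 20.1% against 33.3%, 21.8% and 31.4%. Shares ranged from 4.42% to 11.5% for miR-30b-5p and from 1.61% to 4.04% for miR-30e-5p.

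**Figure D3:**
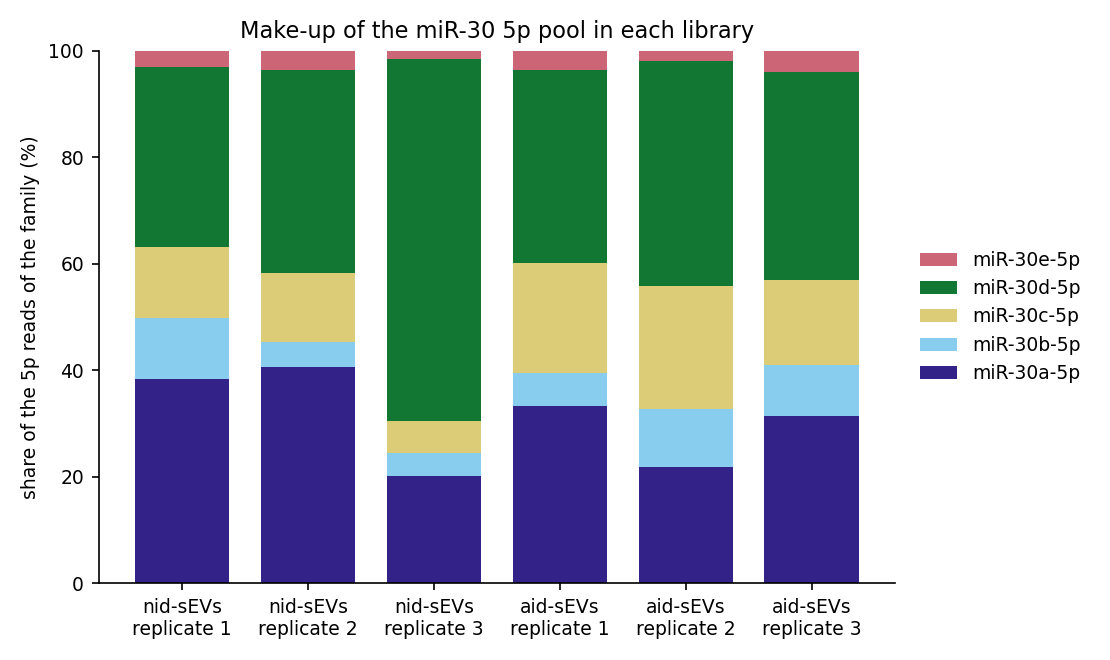
Share of each member in the summed 5p reads of the family (%), with 1 bar per library. The miR-30c-5p segment is 6.02% to 13.3% in nid-sEVs and 15.8% to 23.2% in aid-sEVs, and miR-30d-5p takes 67.9% in nid-sEVs replicate 3.

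Of the 10 ratios between 5p members, 2 did not overlap between the groups, and miR-30c-5p was in both. The log2 ratio of miR-30a-5p to miR-30c-5p was 1.52, 1.65 and 1.73 in nid-sEVs and 0.70, −0.09 and 0.99 in aid-sEVs, a difference of −1.11 (exact two-sided permutation test, p = 0.10, adjusted p = 0.50 over the 10 pairs). The log2 ratio of miR-30c-5p to miR-30d-5p was −1.35, −1.56 and −3.49 in nid-sEVs and −0.82, −0.86 and −1.30 in aid-sEVs, a difference of 1.14 with the same p-values, which was 0.46 without nid-sEVs replicate 3. The values of miR-30a-5p over miR-30c-5p lay close together in nid-sEVs, including replicate 3, although both members were low in that library. The log2 ratio of miR-30a-5p to miR-30e-5p, the strands that differ by 1 base, was 3.68, 3.47 and 3.63 in nid-sEVs and 3.21, 3.51 and 2.96 in aid-sEVs and overlapped (exact permutation test, p = 0.20).

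The 5p strand outnumbered the 3p strand in all 6 libraries for miR-30a, miR-30b, miR-30d and miR-30c, with the 3p reads of both miR-30c hairpins added. For miR-30e this held by read number in the 3 nid-sEV libraries, whereas in the 3 aid-sEV libraries the 3p strand had more reads. The intervals below allow equal arms in nid-sEVs replicate 2 and in aid-sEVs replicates 1 and 3. So does the limit of 3 reads in nid-sEVs replicate 3, which had only 4 miR-30e reads. The 3p part of miR-30e reads was 31.5% (23 of 73 reads, 95% Wilson interval 22.0% to 42.9%), 38.5% (15 of 39, 24.9% to 54.1%) and 0% (0 of 4, which allows up to 75.0%) in nid-sEVs. In aid-sEVs it was 52.4% (194 of 370, 47.3% to 57.5%), 81.4% (193 of 237, 76.0% to 85.9%) and 52.4% (55 of 105, 42.9% to 61.7%). The log2 ratio of miR-30e-5p to miR-30e-3p was 1.12, 0.68 and 6.32 in nid-sEVs and −0.14, −2.12 and −0.14 in aid-sEVs, a difference of −3.51 with no overlap (exact two-sided permutation test, p = 0.10, adjusted p = 0.25 over the 5 hairpins). Without nid-sEVs replicate 3, whose 4 miR-30e reads carry little weight, the difference was −1.70, and with all libraries it ran from −4.61 to −2.40 over pseudocounts of 0.1 and 10. The intervals of nid-sEVs replicates 2 and 3 (0% to 49.0% for replicate 3) overlapped those of aid-sEVs replicates 1 and 3.

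For miR-30a the 3p part was 8.56%, 18.1% and 36.7% in nid-sEVs and 10.9%, 26.1% and 8.04% in aid-sEVs, which overlapped (exact permutation test on the log2 ratio, p = 0.60). The arm ratios of miR-30b and miR-30c overlapped as well (exact permutation test, p = 0.70 and 0.50). For miR-30d the 3p part was 0% in each nid-sEV library (0 of 568, 250 and 169 reads, which allow up to 0.528%, 1.20% and 1.78%) and 0.169%, 0.912% and 1.23% in aid-sEVs. Its log2 arm ratio did not overlap (exact permutation test, p = 0.10, adjusted p = 0.25), but the size of the difference was set by the pseudocount (−7.80 to −1.88 over 0.1 and 10), and 3 reads in nid-sEVs replicate 3 would exceed each aid-sEV share.

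Since miR-30a and miR-30e differ by 1 base in each arm, their reads were also added together. The summed level of miR-30a-3p and miR-30e-3p was 643, 1127 and 574 RPM in nid-sEVs and 759, 1053 and 728 RPM in aid-sEVs, which overlapped. Within this sum, miR-30e-3p took 27.7%, 20.3% and 0% of reads in nid-sEVs and 49.2%, 52.0% and 61.8% in aid-sEVs. The 95% Wilson intervals lay at 38.2% or below in nid-sEVs and at 44.3% or above in aid-sEVs (exact two-sided permutation test over libraries, p = 0.10, adjusted p = 0.20 over both arms). A 0 among the 29 reads of nid-sEVs replicate 3 allows up to 10.3%.

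For the 5p strands the groups overlapped. The strand miR-30e-5p took 7.24%, 8.25% and 7.41% of the summed miR-30a-5p and miR-30e-5p reads in nid-sEVs and 9.76%, 8.03% and 11.4% in aid-sEVs (exact permutation test, p = 0.20). The miR-30e part of the 3p strands thus differed by 38.4 percentage points between group means, and that of the 5p strands by 2.09 percentage points. The difference between the arms was itself tested only within each hairpin, by the arm ratios above. These sums were added after the values were seen, and all intervals cover counting error only.

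**Figure D4:**
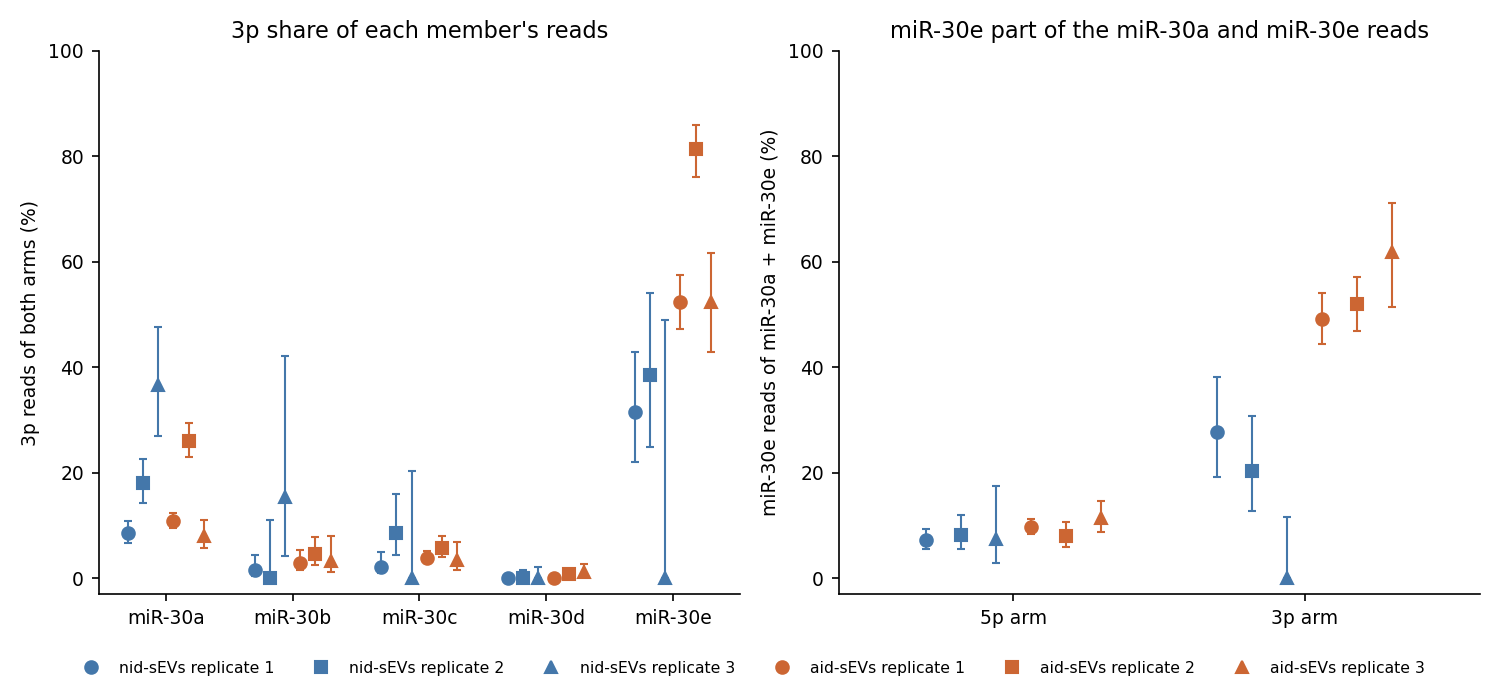
Left, the 3p part of the reads of each member (%), with both miR-30c hairpins together; right, the miR-30e part of the summed miR-30a and miR-30e reads (%) in each arm. Points are single libraries, coloured by group, and bars are 95% Wilson intervals. On the right, 3p points lie at 27.7% or below in nid-sEVs and at 49.2% or above in aid-sEVs, while the 5p points run from 7.24% to 11.4%.

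Other miRNAs with a bearing on the family were read from the same fit. The seed relative miR-384-5p stood at 116, 0 and 0 RPM in nid-sEVs and 179, 176 and 319 RPM in aid-sEVs (limma, adjusted p = 0.13). The miR-200 family, the best known miRNAs of epithelial identity, had 5 listed members, of which 2 were lower in aid-sEVs and 0 higher. Over all entries 1.81% were called lower and 15.6% higher, and the 13 called lower became 3 with TMM factors. miR-200c-3p stood at 1518, 1553 and 2216 RPM in nid-sEVs and 558, 403 and 532 RPM in aid-sEVs (limma, adjusted p = 0.030). miR-200b-3p stood at 906, 868 and 653 RPM against 283, 202 and 270 RPM (limma, adjusted p = 0.046). No 5p arm of the miR-30 family showed such a separation. Of the entries detected in every library, 20.1% had each aid-sEV library below each nid-sEV library.

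Of the miRNA lists for other cell types, the summed red cell and liver levels did not overlap between the groups. Nor did the summed miR-200 levels, at 5679 to 10233 RPM in nid-sEVs and 1962 to 4171 RPM in aid-sEVs. The endocrine list ranged from 74718 to 360886 RPM in nid-sEVs and from 164821 to 186134 RPM in aid-sEVs, with 1 of 4 members higher (miR-7b-5p). The summed red cell list (miR-451a, miR-144 and miR-486 arms) lay at 4274 to 12884 RPM in nid-sEVs and 728 to 1540 RPM in aid-sEVs, with 1 of 5 members called lower, and the liver miRNA miR-122-5p lay at 396 to 3000 RPM against 24.5 to 42.6 RPM and was called lower. The acinar list (3 members) ranged from 2533 to 8997 RPM against 698 to 3370 RPM, the endothelial list (2 members) from 989 to 3717 RPM against 679 to 1325 RPM, and the mesenchymal list (7 members) from 5838 to 26310 RPM against 4531 to 11771 RPM, with no member of these called. Leukocyte miRNAs were at 116 RPM or below in each library for all 4 listed members, and none was called. Their part in the miR-30 values, in particular in the split between miR-30a-3p and miR-30e-3p, was not tested. Fewer vesicles from a cell type and less of a miRNA per vesicle cannot be told apart in these libraries.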

How the data were processed

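Small RNA from islet sEVs was sequenced in 6 libraries, 3 of nid-sEVs and 3 of aid-sEVs, grouped by their labels. The authors deposited 1 table of 718 entries (479 with a miRBase name) with RPM values per library. The submitters' processing notes name fastp 0.23.0, HISAT2 2.2.1 and GRCm38. The counting method and the handling of reads that fit several miRNAs are not given in the sources used here. The 5 columns of the authors' own comparison (fold change, mean level, p-value, false discovery rate and direction) were not used. Each entry was detected in at least 2 libraries.

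RPM values were whole multiples of 1 read in each library, and 100% of values came out whole at a tolerance of 0.01 read, which gave the library totals and the reads used for 95% Wilson intervals and for limits of 3 reads. limma 3.58.1 (lmFit, eBayes with trend) in R 4.3.3 was fitted on log2(RPM + 1) over all entries, with no covariate. An entry was called at an adjusted p (Benjamini-Hochberg) under 0.05. On this scale the fold change of an entry with libraries at 0 depends on the pseudocount, since 1 read stood for 1.93 to 19.8 RPM. For miR-30e-3p it was 3.71, against 4.82 with a pseudocount of 0.1, 2.59 with 10 and 1.91 in DESeq2. Ratios within libraries were tested by exact permutation in SciPy 1.17.1, with p-values adjusted over the members, pairs or hairpins. The fit was tested on simulated data. Alternatives were pseudocounts of 0.1 and 10, a mean RPM of at least 10, detection in all libraries, TMM factors, median centring, named entries alone, thinning to 50534 reads, edgeR 4.0.16, DESeq2 1.42.0, a replicate block and each library left out. edgeR's quasi-likelihood test called 55 entries higher and DESeq2 called 65.

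All members were named, with the listed marker miRNAs and the 5 entries whose profile was most like the 5p sum. Members and lists were chosen with earlier results of these data known.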

Additional observations from a re-analysis of the deposited data

How the results depend on the processing

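The count of members called higher, 2 in limma, was 0 with a pseudocount of 10, 1 at a mean RPM of at least 10, 0 after thinning, 0 among the 6 members detected in all libraries, 0 of the 7 members tested by edgeR, 0 of the 10 with an adjusted p in DESeq2 and 0 to 2 with single libraries left out; members called lower stayed at 0 in each of these. Over all entries, 112 were called higher, against 62 with a pseudocount of 10, 69 at a mean RPM of at least 10, 57 after thinning, 23 among entries detected in all libraries, 55 in edgeR, 65 in DESeq2 and 33 to 150 with single libraries left out. The 13 called lower became 8 with a pseudocount of 0.1, 3 with TMM factors, 4 after thinning, 50 in DESeq2 and 1 to 26 with single libraries left out. With the replicate number as a block, 0 members and 0 entries were called higher and 0 lower (limma), with 187 entries at an unadjusted p under 0.05. To check for pairing, each entry's deviation from its group mean on log2(RPM + 1) was correlated between libraries. This covered the 219 entries detected in all libraries. For same-numbered libraries these correlations were −0.054, 0.13 and −0.11, so the numbers are not taken to pair the libraries. The deviations of a library did not always correlate best with those of its own number. Over the alternatives that gave one, the adjusted p ran from 0.0071 to 0.28 for miR-30c-1-3p and from 0.0083 to 0.28 for miR-30d-3p.

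TMM factors raised the difference of the 5p sum from −597 to 2446 RPM and that of the 3p sum from 123 to 488 RPM, turned miR-30a-5p to 0.34 and miR-30d-5p to 0.30 on the log2 scale, and gave all 5 5p arms a positive fold change, against 3 of 5. TMM also moved the median over all entries from 1.11 to 1.43. That median was 1.78 with a pseudocount of 0.1, but 0.39 with 10, 0.32 after thinning and 0.36 in DESeq2. Median centring gave 0.013 for miR-30a-5p, and thinning gave −1.59 for miR-30b-3p. With single libraries left out, the sums differed by −2783 to 1234 RPM (5p) and 1.46 to 319 RPM (3p). Log2 fold changes whose sign turned ran from −0.89 to 0.27 for miR-30a-5p, −0.17 to 2.50 for miR-30b-3p, −0.18 to 1.21 for miR-30b-5p, −0.014 to 3.46 for miR-30c-2-3p and −0.54 to 0.73 for miR-30e-5p. Arm ratios did so for miR-30a (−0.12 to 1.20), miR-30b (−2.68 to 0.55) and miR-30c (−2.37 to 0.044). Among 5p ratios, miR-30a over miR-30d ran from −0.60 to 0.37, miR-30b over miR-30e from −0.24 to 0.63 and miR-30d over miR-30e from −0.79 to 0.25, and the shares of miR-30d-5p and miR-30e-5p from −13.8 to 3.20 and from −0.14 to 1.07 percentage points. Most of these turned without nid-sEVs replicate 3. The arm ratio of miR-30e stayed negative throughout, from −4.61 with a pseudocount of 0.1 to −1.70 without nid-sEVs replicate 3, and was −3.06 after thinning (exact permutation test, p = 0.30). The causes were not tested. Depth limits the low members, with 0 to 60 reads for each 3p arm and 4 to 50 for miR-30e-5p in the nid-sEV libraries.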

Other observations

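Over the 6 libraries, entries were compared with the summed miR-30 5p level by Pearson correlation on log2(RPM + 1). Among the 213 entries outside the family detected in every library, the closest were miR-27a-3p (Pearson r = 0.94), miR-434-3p (0.93), miR-99a-5p (0.92), the islet miRNA miR-7a-5p (0.91) and miR-101a-3p (0.90). These values describe 6 libraries that share one scaling to the library total, in which nid-sEVs replicate 3 is low for the 5p sum.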
